A study of Mus musculus with 15 samples.

Results

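The leptin receptor and the proteins that carry or brake its signal were examined in whole hearts of db/db and db/+ mice. The db/db mice lack a working long form of that receptor. Probes were chosen by the gene name in the scanner files, which had to be Lepr, Leprotl1, Lep, Socs3, Stat3, Jak2 or Ptpn1 (or an older alias of these), and control spots were left out. The choice gave 12 of the 41174 probes on the array, for 7 genes, and 10 of the 12 were bright enough to be tested. The study set out to learn what diabetes and the insulin sensitizer rosiglitazone, an agonist of the nuclear receptor PPAR gamma, do to transcription in the heart. There were 5 rosiglitazone-treated db/db mice, 5 untreated db/db mice and 5 db/+ mice. Both db/db groups had the genotype C57BL/KLS-leprdb/leprdb, with the db allele on both copies of Lepr, and the db/+ mice had the genotype C57BL/KLS-leprdb/lepr+, so that every mouse here, the nondiabetic ones included, carried at least 1 mutant copy. The drug was given in the chow at 5 mg/kg per day, hearts were taken after 4 months with or without it, and the labels give no age. RNA of each heart (Cy5) was hybridised with a universal mouse reference RNA (Cy3), so each value is a log2 ratio of heart to reference unless stated otherwise.

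Leptin is a hormone of fat cells that reports on fat stores. Its receptor belongs to the class of cytokine receptors that includes gp130, has no enzyme of its own and works through the bound kinase JAK2, which phosphorylates STAT3; STAT3 then enters the nucleus and induces genes, among them Socs3, whose product shuts the receptor off again, while the phosphatase PTP1B (Ptpn1) removes phosphate from JAK2. Splicing makes a long receptor with the full signalling tail, best known in the hypothalamus, and short receptors found in many tissues, the heart included. The db allele is a splicing mutation by which the long form loses most of its tail, while short forms can still be made.

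Which transcripts a probe can see follows from where it lies, so the sequences of the probes on which most of what follows rests are shown, in lower case throughout, with positions in the mm8 build given by the scanner files. The first Lepr probe, A_51_P396045, is 60 bases long but spans 1502 bases of chromosome 4 (chr4:101287267-101288768, plus strand), so it crosses an exon junction. The files list it under 2 RefSeq transcripts of Lepr. The second, A_52_P247900 (chr4:101310811-101310870, plus strand), is listed under U42467, and only its first 30 bases are shown because its place in the transcript is not annotated in the sources used here; the same holds for both Stat3 probes, on the minus strand of chromosome 11 (chr11:100704374-100704433 for A_51_P201480 and chr11:100701238-100701297 for A_52_P569499). The Leprotl1 probe A_52_P395220 is on the minus strand of chromosome 8 (chr8:35606290-35606349). Neither Lepr probe is annotated as specific to the long form or to the db transcript, so the probes check nothing about the mutation itself.
Lepr A_51_P396045: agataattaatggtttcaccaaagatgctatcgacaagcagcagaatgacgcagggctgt
Lepr A_52_P247900, bases 1 to 30: agagagcaatgacttattccataattaatg
Leprotl1 A_52_P395220: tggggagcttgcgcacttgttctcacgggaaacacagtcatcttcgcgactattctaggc
Stat3 A_51_P201480, bases 1 to 30: cactctgtgagctgataccccaggctggga
Stat3 A_52_P569499, bases 1 to 30: atccatcacacagcccagtaaaccaggaag

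The hearts were whole organs with several cell types, and fewer cells of a type and less RNA per cell cannot be told apart. Endothelial markers such as Pecam1 and Cdh5 were well above background on every array (6 of 6), and none of the 6 passed the test in any comparison. All 7 cardiomyocyte markers were tested and none was called, but their mean log2 ratio was 3.48 in db/+ replicate 2, against 5.77 to 7.53 in the other db/+ hearts. It was 4.88 in untreated replicate 5, against 5.82 to 7.09 in the other untreated hearts. Hepatocyte markers stood highest in untreated replicate 2, with a mean of 6.27, against 1.61 to 4.78 in the other untreated hearts, 0.29 to 3.46 in treated hearts and 0.18 to 2.08 in db/+ hearts. Of the 6 hepatocyte markers tested, Serpina1b was called higher in untreated against db/+ hearts (1.97 ± 0.56, adjusted p = 0.0486, limma; errors given with differences are standard errors of the fit). The lymphocyte marker Ms4a1 was called lower in both db/db groups, with differences of -1.79 ± 0.23 in treated and -1.94 ± 0.22 in untreated against db/+ hearts (adjusted p = 0.000674 and 0.000274). Fibroblast markers had a mean of -0.085 to 0.13 in treated, -0.24 to 0.52 in untreated and 0.22 to 0.53 in db/+ hearts. None of the 5 was called, and their median difference was -0.43 in treated and -0.29 in untreated against db/+ hearts. Lepr, Jak1 and Leprot, described further on, had lower mean ratios in both db/db groups than in db/+ hearts. Of them only Jak1 was called in both groups. The part of lymphocytes or fibroblasts in these lower means was not tested. The arrays of treated replicates 3 and 4 differed less in their heart channel (median absolute deviation 0.142 on the log2 scale) than any other pair of arrays of the same group (0.267 to 0.621), and less than the common reference differed between 100 of the 105 pairs of arrays, so they were counted as 1 sample, which left 14 samples. The 15 arrays lay on 4 slides, and groups and slides overlapped only in part, with db/+ and untreated hearts together on 1 slide and untreated and treated hearts together on another. No slide held both treated and db/+ hearts, so for that comparison the value called chained over slides is the sum of the untreated minus db/+ difference on the first of these slides, where db/+ replicate 5 was the only db/+ array, and the treated minus untreated difference on the second.

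None of the 10 tested probes passed the test in any of the 3 comparisons, by limma with Benjamini-Hochberg adjustment over all 27550 probes tested. Of all tested probes, 7.77% were called between untreated db/db and db/+ hearts, 0% between treated and untreated db/db hearts, and 8.74% between treated db/db and db/+ hearts, so with 10 probes fewer than 1 call would have matched the background. Of the calls over all probes, 56.4% were upward for untreated mice and 51.5% upward for treated mice, each against db/+ mice, and these shares were 69.0% and 69.3% after normexp background correction with loess. At an unadjusted p under 0.05 there were 2, 0 and 2 probes in these comparisons, where the shares over all probes were 25.5%, 8.78% and 26.8%. The median difference of the 10 probes was -0.0024, -0.037 and -0.021 on the log2 scale, beside 0.013, -0.0094 and 0.0054 over all tested probes. Between untreated and db/+ hearts the largest differences of the 10 belonged to a Lepr probe and to both Stat3 probes, and 1 of the 10, a Leprotl1 probe, had no overlap between either db/db group and db/+ hearts (7.81% and 14.6% of all tested probes had none). Values are given gene by gene, from the hormone through the receptor to its kinase, transcription factor and inhibitors. Untreated against db/+ hearts is given for every tested probe, and the other 2 comparisons for some of them. The comparisons share samples, the untreated hearts in one role and the db/+ hearts in another.

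**Figure D1:**
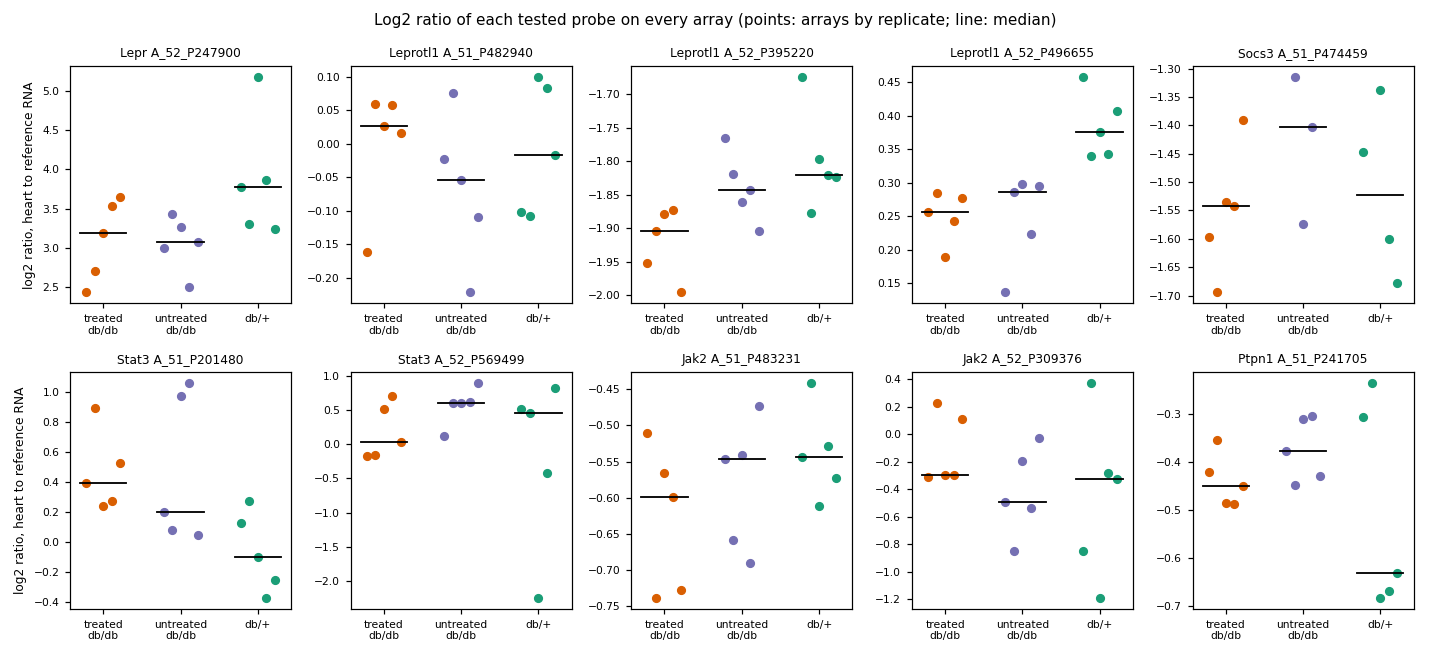
Heart over reference signal as log2 (vertical axis) for the 10 tested probes in treated db/db, untreated db/db and db/+ hearts. Each point is 1 array, ordered by replicate number within its group, and the line is the median; the vertical scale differs between panels, and only for Leprotl1 A_52_P496655 do all db/db points lie below all db/+ points.

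Leptin itself gave no measurable signal in any heart. The Lep probe A_52_P374882, printed on 10 spots, was not well above background in either channel on any of the 15 arrays. Its processed heart signal was 8.71 to 11.7 units on treated, 5.78 to 10.3 units on untreated and 6.46 to 11.0 units on db/+ arrays, which overlap throughout, and it was not tested. Adipocyte markers were nonetheless detected. Of the 9 listed, 5 to 6 were well above background on treated, 5 to 7 on untreated and 4 to 8 on db/+ arrays, and 7 were tested. Adipoq (adiponectin) was well above background on 0 of 5 treated, 1 of 5 untreated and 4 of 5 db/+ arrays, and Cfd (adipsin) on 1, 3 and 5 arrays of these groups. Both entered the test through the db/+ arrays alone, so neither size nor call is given. Each was below the background mark on several db/db arrays. Of the other 5 tested markers (Plin1, Fabp4, Cidec, Lipe and Pnpla2) only Lipe, a lipase that muscle cells also make, was called, with 0.88 ± 0.17 in untreated against db/+ hearts (adjusted p = 0.00948, limma). In treated against db/+ hearts Fabp4, Lipe and Pnpla2 differed by 0.47, 0.56 and 0.16 (adjusted p = 0.707, 0.0736 and 0.612, limma). Plin1 and Cidec had negative differences there, and the median over all 7, Adipoq and Cfd included, was -0.20. Adipoq and Cfd were thus detected on fewer arrays in each db/db group than in db/+ hearts. None of the other 5 was called lower. The part of adipocytes in the receptor values that follow was not tested.

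The leptin receptor was weakly expressed, and its reading was lower in both db/db groups, in the heart channel more clearly than in the ratio. With probe A_52_P247900 the log2 ratios were 2.43, 2.70, 3.19, 3.54 and 3.65 in treated db/db hearts. They were 2.998, 3.43, 3.27, 2.51 and 3.08 in untreated db/db hearts, and 3.77, 3.31, 5.18, 3.87 and 3.24 in db/+ hearts. Treated replicates 3 and 4 are given apart but enter means and tests as their average, here and throughout. The db/db groups overlap each other and overlap the low end of the db/+ group, whose replicate 3 is the highest of all. The mean was 3.04 ± 0.57 in treated (SD, n = 4), 3.06 ± 0.35 in untreated (n = 5) and 3.87 ± 0.78 in db/+ hearts (n = 5). The difference was -0.82 ± 0.34 for untreated against db/+ hearts (95% interval -1.55 to -0.081, adjusted p = 0.154, limma) and -0.84 ± 0.36 for treated against db/+ hearts (adjusted p = 0.159). Treated and untreated db/db hearts differed by -0.019 ± 0.36 (95% interval -0.80 to 0.76, adjusted p = 0.995).

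This ratio has a denominator that was not measured well: the reference signal of A_52_P247900 was below the well-above-background mark on all 15 arrays, at 6.61 to 23.1 units, whereas the heart signal passed it on all arrays but treated replicate 1. The processed heart signal was 50.7, 106, 92.2, 123 and 120 units in treated db/db hearts and 108, 71.4, 83.9, 57.8 and 93.8 units in untreated db/db hearts. In db/+ hearts it was 111, 168, 247, 337 and 163 units. Here the dimmest db/+ heart lies near the brightest hearts of both db/db groups and the other 4 db/+ hearts lie above them all. With the heart channel alone, evened between arrays by Aquantile normalization and taken as log2 (an analysis added after the ratios were seen), the mean was 6.27 ± 0.53 in treated (SD, n = 4), 6.44 ± 0.49 in untreated (n = 5) and 7.71 ± 0.63 in db/+ hearts (n = 5). The probe then fell by 1.28 ± 0.32 in untreated db/db hearts (0.412 of the db/+ level, adjusted p = 0.0309, limma) and by 1.44 ± 0.34 in treated db/db hearts (0.368 of the db/+ level, adjusted p = 0.0184). Treated and db/+ hearts did not overlap on this scale, nor did they for Stat3 A_51_P201480, which was not called (adjusted p = 0.122, limma). The share of all probes without overlap was not computed for the heart channel. In the same analysis 6.30% of all probes were called for untreated and 9.65% for treated db/db against db/+ hearts, and 0.258% for treated against untreated hearts, where Lepr differed by -0.16 ± 0.34 (adjusted p = 0.876). Lepr was the only one of the 10 probes called with the heart channel alone.

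These Lepr calls were close to the threshold. Leaving out 1 array at a time kept the direction, between -1.47 and -1.09 for untreated against db/+ hearts with 11 of 15 fits still past the threshold (adjusted p 0.0143 to 0.0795), and between -1.64 and -1.19 for treated against db/+ hearts with 14 of 15 (adjusted p 0.00896 to 0.0625). The calls of untreated against db/+ hearts were lost without db/+ replicate 3 (adjusted p = 0.0729), without db/+ replicate 4 (0.0795), and without untreated replicate 4 (0.0567) or 5 (0.0743), and that of treated against db/+ hearts without treated replicate 1 (0.0625). Without db/+ replicate 2 (lowest cardiomyocyte markers) and untreated replicate 2 (highest hepatocyte markers) together, the differences were -1.41 and -1.52 (adjusted p = 0.0485 and 0.0322, limma). Untreated replicate 5, with the next lowest cardiomyocyte markers, was kept in this fit. Within the slide that holds both groups, where db/+ hearts are represented by replicate 5 alone, untreated and db/+ hearts differed by -0.76 in the heart channel and by -0.012 in the ratio, and with slide as a fixed block neither call held (adjusted p = 0.842 and 0.999).

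**Figure D2:**
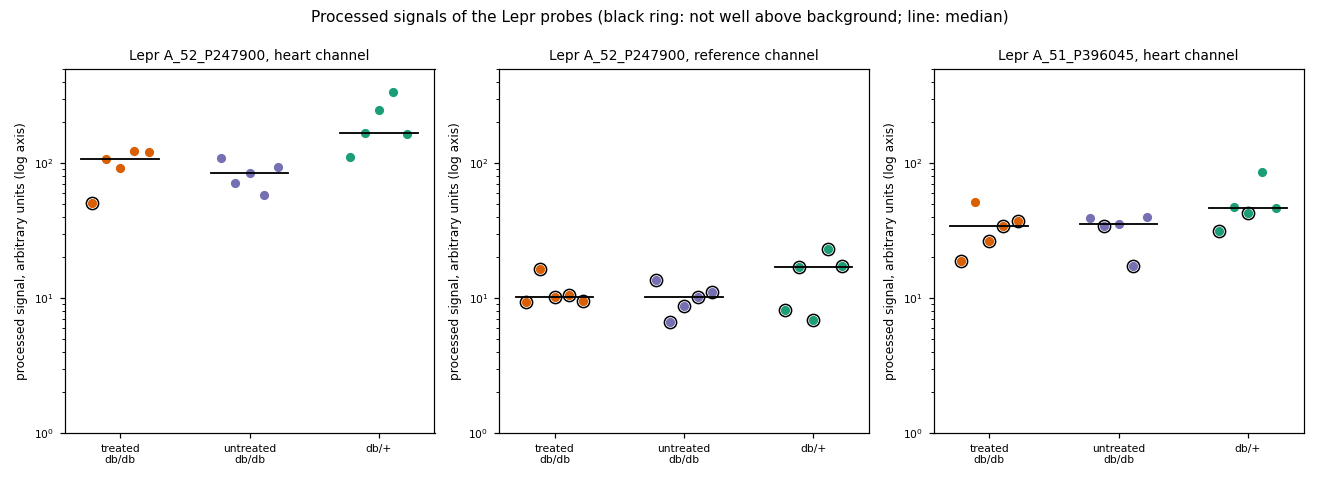
Processed signals in arbitrary units, on log axes, of Lepr probe A_52_P247900 in the heart channel (left) and in the reference channel (middle), and of Lepr probe A_51_P396045 in the heart channel (right). Each point is 1 array, the line is the median and black rings mark arrays not well above background; the heart signal of A_52_P247900 is 50.7 to 123 units in treated, 57.8 to 108 units in untreated and 111 to 337 units in db/+ hearts, and the reference signal is ringed on all 15 arrays.

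The junction probe A_51_P396045, printed on 10 spots, was dimmer still and was not tested. It was well above background in the heart channel on 1 of 5 treated, 3 of 5 untreated and 3 of 5 db/+ arrays, with heart signals of 18.7, 51.4, 26.5, 34.4 and 36.9 units in treated hearts. They were 39.3, 34.2, 35.2, 17.2 and 39.6 units in untreated hearts, and 31.4, 47.4, 42.5, 86.2 and 46.2 units in db/+ hearts. The groups overlap, with db/+ replicate 4 the brightest array for this probe as it was for the other. With no filter on dim probes its ratio differed by -0.54 ± 0.40 in untreated and by -0.86 ± 0.43 in treated against db/+ hearts (adjusted p = 0.519 and 0.285, limma). Deviations of the 2 Lepr probes from their group means had a Pearson r of 0.18 over the 14 samples, so the probes did not follow each other from heart to heart; dim signals and the shared reference enter both.

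The genes whose deviations from group means ran most closely with Lepr A_52_P247900 over the 14 samples, among 14323 genes, were Rnf138 (r = 0.92), 1110059G10Rik (0.91), Rdh14 (0.91), Wdr43 (0.90) and Zfp81 (0.90). Of these only Rnf138, a ubiquitin ligase, was called, with -0.58 in untreated against db/+ hearts (adjusted p = 0.0109). Such values are the highest out of many and are given as a description.

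Leprotl1 encodes a small membrane protein related to the product of Leprot; in mouse and human cells these proteins lower the amount of leptin receptor at the cell surface. Its 3 probes were bright in both channels on all arrays. The probe A_52_P496655 read 0.26, 0.28, 0.19, 0.24 and 0.28 in treated and 0.14, 0.29, 0.30, 0.22 and 0.30 in untreated db/db hearts. It read 0.46, 0.34, 0.38, 0.34 and 0.41 in db/+ hearts, all above every db/db heart. The step was small, -0.14 ± 0.066 for untreated and -0.13 ± 0.070 for treated against db/+ hearts, and did not pass the test (adjusted p = 0.215 and 0.269). The other Leprotl1 probes overlapped between groups. A_52_P395220 ranged from -1.996 to -1.87 in treated, -1.90 to -1.76 in untreated and -1.88 to -1.67 in db/+ hearts, with differences of -0.040 ± 0.068 for untreated and -0.13 ± 0.072 for treated against db/+ hearts (adjusted p = 0.756 and 0.256). A_51_P482940 lay between -0.22 and 0.10 in all hearts and differed by -0.058 ± 0.083 in untreated against db/+ hearts (adjusted p = 0.703). With normexp background correction and loess the difference of A_52_P496655 for untreated against db/+ hearts was 0.035, of the other sign.

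Jak2, the kinase bound to the receptor, had nearly the same level in every heart by its bright probe. The bright probe A_51_P483231 read -0.51, -0.74, -0.57, -0.60 and -0.73 in treated hearts. It read -0.55, -0.66, -0.54, -0.69 and -0.47 in untreated hearts and -0.54, -0.44, -0.61, -0.53 and -0.57 in db/+ hearts, so the groups overlap. Untreated hearts differed from db/+ hearts by -0.042 ± 0.077 (95% interval -0.21 to 0.12) and treated from untreated hearts by -0.058 ± 0.082 (-0.23 to 0.12; adjusted p = 0.775 and 0.906). The dim probe A_52_P309376, below the background mark on 2 db/+ arrays and 1 untreated array, spread over -0.31 to 0.23 in treated, -0.85 to -0.026 in untreated and -1.19 to 0.37 in db/+ hearts. It bounds little, with a difference of 0.035 ± 0.25 for untreated against db/+ hearts (adjusted p = 0.95, limma). Treated hearts differed by 0.39 ± 0.27 from db/+ hearts and by 0.35 ± 0.27 from untreated hearts (adjusted p = 0.378 and 0.774).

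Stat3, which carries the signal to the nucleus, had the highest values of the group in 3 db/db hearts. The bright probe A_51_P201480, printed on 10 spots, read 0.40, 0.90, 0.24, 0.27 and 0.53 in treated hearts and 0.20, 0.084, 0.97, 1.06 and 0.046 in untreated hearts. In db/+ hearts it read 0.13, 0.28, -0.098, -0.37 and -0.26. Untreated replicates 3 and 4 and treated replicate 2 stand highest, the other 3 untreated hearts lie within or next to the db/+ range, and the treated hearts lie near or above its upper end. The mean was 0.52 ± 0.27 in treated (SD, n = 4), 0.47 ± 0.50 in untreated (n = 5) and -0.065 ± 0.27 in db/+ hearts (n = 5). The difference of 0.54 ± 0.22 for untreated and 0.58 ± 0.23 for treated against db/+ hearts did not pass the test (adjusted p = 0.143 and 0.128, limma), and it was 0.67 within a slide for untreated and 0.77 chained over slides for treated hearts. Over all alternatives tried, the differences were positive, at 0.39 to 0.67 for untreated and 0.46 to 0.77 for treated against db/+ hearts, and none was called. Treated and untreated hearts differed by 0.045 ± 0.23 (adjusted p = 0.978).

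The other Stat3 probe, A_52_P569499, lies downstream of the first on the minus strand and was dim, at 14.3 to 146 units in the heart channel. It read -0.17, -0.16, 0.52, 0.70 and 0.031 in treated hearts, 0.11, 0.60, 0.60, 0.62 and 0.89 in untreated hearts and 0.51, 0.45, -2.25, -0.43 and 0.81 in db/+ hearts. The low value of db/+ replicate 3 came from an array on which the probe was not well above background. Without that array the difference of 0.75 ± 0.46 for untreated against db/+ hearts (adjusted p = 0.324) was 0.23, so this probe adds nothing firm to the first.

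**Figure D3:**
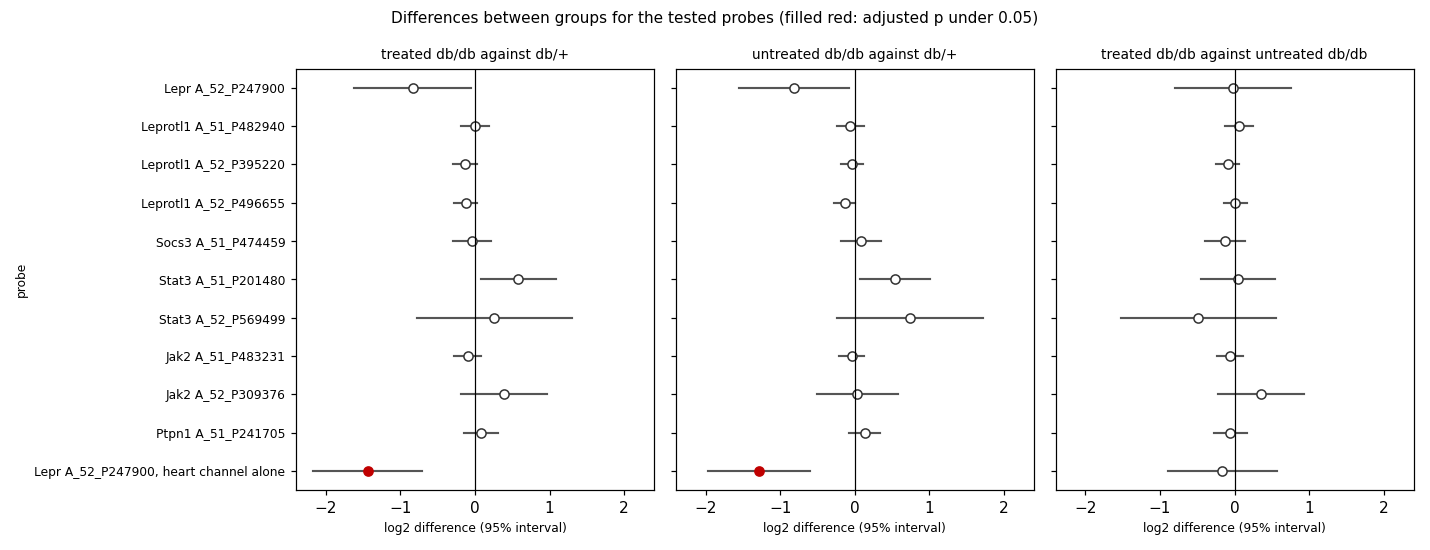
Log2 differences with 95% intervals (horizontal axis) for the 10 tested probes in treated db/db against db/+, untreated db/db against db/+ and treated against untreated db/db hearts; the bottom row is Lepr A_52_P247900 with the heart channel alone. Open circles did not pass an adjusted p of 0.05; the filled red circles, Lepr in the heart channel, lie at -1.44 for treated and -1.28 for untreated against db/+ hearts.

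Socs3, the STAT3-induced brake on the receptor, was bright and did not separate the groups. Its single spot was marked as an outlier and left out on untreated replicates 1 and 5 and on db/+ replicate 2. The remaining log2 ratios were -1.60, -1.69, -1.54, -1.54 and -1.39 in treated hearts, -1.32, -1.57 and -1.40 in untreated replicates 2, 3 and 4, and -1.45, -1.34, -1.60 and -1.68 in db/+ replicates 1, 3, 4 and 5. The groups overlap fully. Untreated hearts differed from db/+ hearts by 0.085 ± 0.12 (95% interval -0.18 to 0.35, n = 3 and 4, adjusted p = 0.705) and treated from untreated hearts by -0.12 ± 0.12 (-0.39 to 0.14, adjusted p = 0.844). With the marked spots kept these values were 0.17 and -0.33 (adjusted p = 0.543 and 0.619).

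Because STAT3 acts through the motif TTCNNNGAA (which reads the same on both strands), the promoter of Socs3 is shown where it holds one. In RefSeq promoters (GRCm38.p6) from 250 bases before to 50 bases after the start, 8.3% of 32851 promoters held this motif. Of Socs3 and the 12 STAT3-induced genes described further on, 10 had an entry and 2, Socs3 and Icam1, held it. Cebpd, Egr1 and Myc had no entry and were not searched. A match is a description of letters and not a site. The stretch of Socs3, chr11:117969487-117969545 on the minus strand, begins its match at position -154 from the start, in capitals:
Socs3 promoter: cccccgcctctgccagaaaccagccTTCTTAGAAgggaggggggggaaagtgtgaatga

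Among genes, the deviations of Socs3 from its group means over the 11 samples with a value ran closest with those of Pkmyt1 (r = 0.95), Peli1 (0.92), Oas3 (0.90), Ptk7 (0.89) and Trip13 (0.89), none of them called in untreated against db/+ hearts.

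Ptpn1, the gene of PTP1B, was expressed evenly in both db/db groups and split the db/+ hearts. It read -0.42, -0.35, -0.48, -0.49 and -0.45 in treated and -0.38, -0.45, -0.31, -0.30 and -0.43 in untreated hearts. In db/+ hearts it read -0.31, -0.24, -0.68, -0.67 and -0.63, with replicate 2 above and replicates 3, 4 and 5 below every db/db heart, and replicate 1 level with the highest untreated hearts. The SD was accordingly 0.056 in treated, 0.066 in untreated and 0.22 in db/+ hearts. The mean difference was 0.13 ± 0.099 for untreated and 0.077 ± 0.10 for treated against db/+ hearts (adjusted p = 0.429 and 0.677), and db/+ replicates 1 to 4, on both sides of the gap, shared a slide.

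The other genes of the pathway were taken from lists of kinases and STATs, inhibitors, adaptors, receptors, induced genes and brain targets, each gene by its brightest probe. Of 61 genes, 60 were on the array and 57 were tested. In untreated against db/+ hearts 1 was higher and 2 were lower, in treated against untreated hearts 0 were called (7 at an unadjusted p under 0.05), and 6 were higher and 2 lower in treated mice than in db/+ mice, beside 7.77%, 0% and 8.74% of all probes. The median difference over the 57 was 0.11, -0.0027 and 0.024. Without db/+ replicate 2 and untreated replicate 2, 2 were higher (Cebpd and Pik3r1) and 0 lower in untreated against db/+ hearts, and 6 and 2 in treated against db/+ hearts. All 11 calls were lost with slide as a fixed block, under which 33 and 4 of all 27550 probes were called in these 2 comparisons, so each is given with its value within a slide (untreated against db/+) or chained over slides (treated against db/+).

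**Figure D4:**
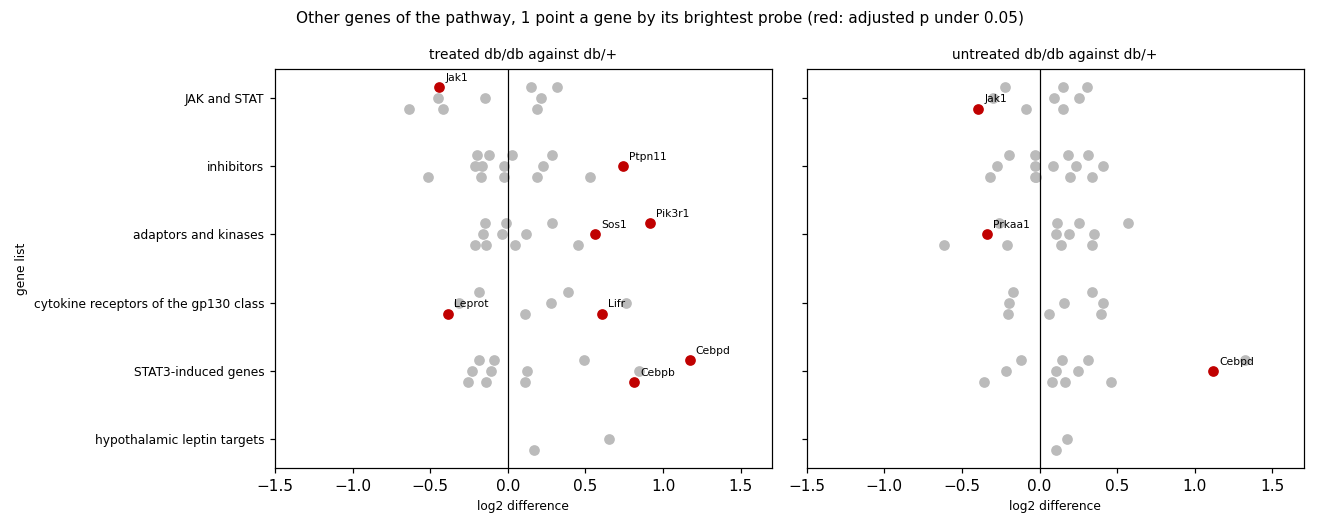
Log2 difference (horizontal axis) of 57 other pathway genes, by list, in treated db/db against db/+ hearts (left) and untreated db/db against db/+ hearts (right). Each point is 1 gene by its brightest probe and red points with names passed an adjusted p of 0.05; there are 8 on the left and 3 on the right, and Jak1 and Cebpd are red in both.

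Among the 12 STAT3-induced genes, Cebpd, a transcription factor that STAT3 induces in the acute phase response, rose in both db/db groups. It read -0.86, -1.46, -1.04, -1.03 and -2.16 in treated, -1.26, -0.99, -1.38, -1.80 and -1.73 in untreated and -2.55, -2.42, -2.53, -2.46 and -2.79 in db/+ hearts. Every db/db heart lies above every db/+ heart, treated replicate 5 by the least. The difference was 1.12 ± 0.22 for untreated (2.17-fold, adjusted p = 0.00971) and 1.17 ± 0.23 for treated against db/+ hearts (2.25-fold, adjusted p = 0.00985, limma), and it was 1.58 within a slide for untreated and 2.19 chained over slides for treated hearts. Its relative Cebpb rose in treated db/db against db/+ hearts by 0.81 ± 0.17 (adjusted p = 0.012; 1.42 chained over slides), with 0.46 ± 0.16 in untreated hearts (adjusted p = 0.0897). The other 10 genes were not called, and the median of the list was 0.15 in untreated and 0.013 in treated against db/+ hearts.

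Among the other 9 kinases and STATs, Jak1, a kinase of many cytokine receptors, fell in both db/db groups. It read 0.25, 0.16, -0.049, 0.022 and 0.11 in treated, 0.33, -0.020, 0.27, 0.19 and 0.090 in untreated and 0.81, 0.50, 0.41, 0.51 and 0.60 in db/+ hearts. No db/db heart reached the lowest db/+ heart. The difference was -0.40 ± 0.098 for untreated and -0.44 ± 0.10 for treated against db/+ hearts (adjusted p = 0.0275 and 0.0205; -0.41 within a slide and -0.34 chained over slides). Jak3, the gene with the next smallest p, differed by 0.30 ± 0.11 in untreated against db/+ hearts (adjusted p = 0.102), and none of the 6 STAT genes on the list was called.

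Of the 8 receptors and receptor-associated genes of the gp130 class, 2 were called, both in treated against db/+ hearts. Leprot, which shares its first exons and its start region with Lepr in mouse and human, fell. It read -0.72, -0.53, -0.65, -0.65 and -0.71 in treated, -0.40, -0.34, -0.50, -0.65 and -0.44 in untreated and -0.17, -0.32, -0.21, -0.33 and -0.29 in db/+ hearts. Both db/db groups lie below the db/+ hearts, with the treated hearts lowest on the whole. The difference was -0.39 ± 0.085 for treated (adjusted p = 0.0148; -0.21 chained over slides) and -0.20 ± 0.080 for untreated against db/+ hearts (adjusted p = 0.134), and with the heart channel alone the first was -0.32 (adjusted p = 0.0818). Lifr, the receptor of leukaemia inhibitory factor, rose by 0.60 ± 0.12 in treated against db/+ hearts (adjusted p = 0.00838; 0.57 chained over slides), with 0.34 ± 0.11 in untreated hearts (adjusted p = 0.0745).

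Of the inhibitors, 14 of 15 were tested and Ptpn11 alone was called. It encodes SHP-2, a phosphatase that binds the activated leptin receptor and passes its signal to the ERK pathway, and it rose by 0.74 ± 0.15 in treated against db/+ hearts (adjusted p = 0.00936; 0.44 chained over slides), with 0.34 ± 0.14 in untreated hearts (adjusted p = 0.143). Socs5 differed by -0.32 ± 0.096 in untreated against db/+ hearts (adjusted p = 0.0555). Of the adaptors and kinases, 12 of 13 were tested. Pik3r1, the regulatory subunit of PI 3-kinase, rose by 0.92 ± 0.19 and Sos1, which activates Ras, by 0.56 ± 0.13 in treated against db/+ hearts (adjusted p = 0.0105 and 0.0182; 0.64 and 0.070 chained over slides), while Sos1 was at -0.030 with normexp and loess. Prkaa1, a catalytic subunit of AMP-activated kinase, fell by 0.34 ± 0.091 in untreated against db/+ hearts (adjusted p = 0.0389; -0.23 within a slide), with -0.16 ± 0.096 in treated hearts (adjusted p = 0.309), and its call was lost in 9 of the 15 fits that left out 1 array (adjusted p up to 0.0908). Of the 4 genes that leptin controls in the hypothalamus, Npy and Cartpt were too dim to test, and Pomc and Agrp differed by 0.10 ± 0.098 and 0.18 ± 0.39 in untreated against db/+ hearts (adjusted p = 0.538 and 0.819).

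**Figure D5:**
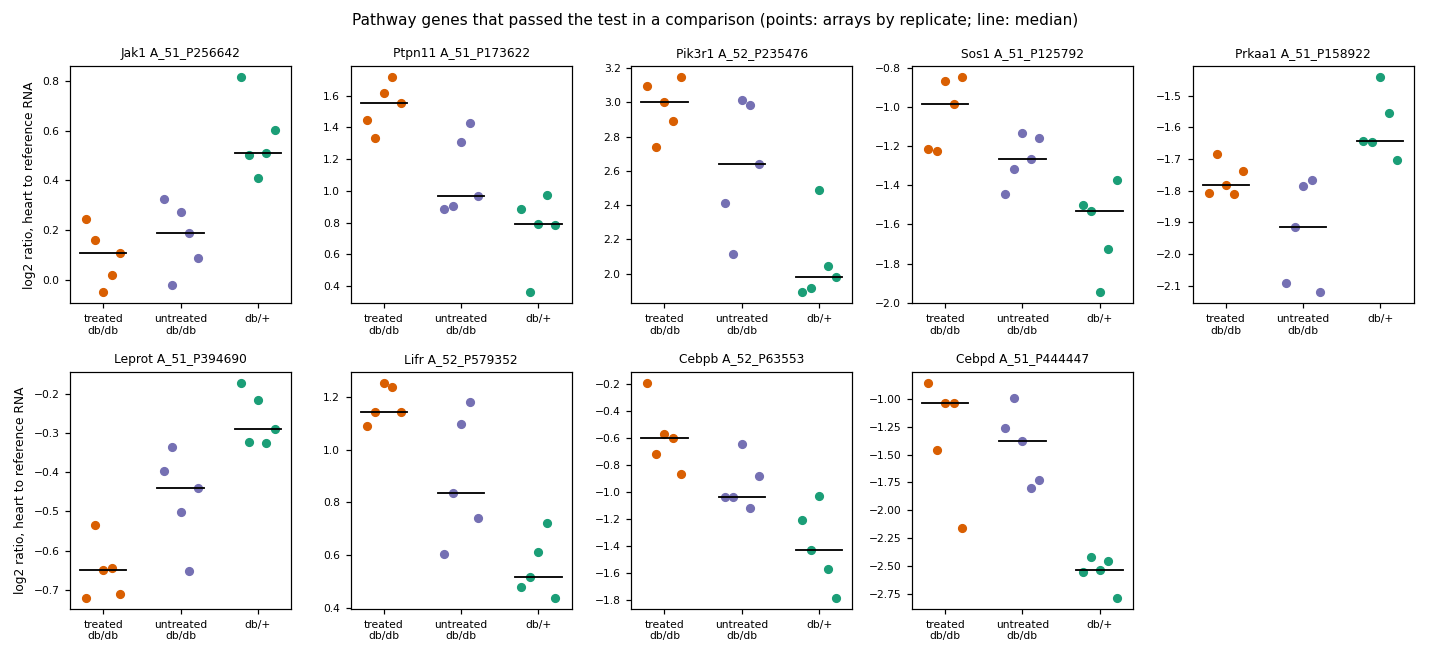
Heart over reference signal as log2 (vertical axis, scale differing between panels) of the 9 pathway genes that passed the test in at least 1 comparison, in treated db/db, untreated db/db and db/+ hearts. Each point is 1 array by replicate number and the line is the median; Cebpd lies at -2.16 to -0.86 in treated, -1.80 to -0.99 in untreated and -2.79 to -2.42 in db/+ hearts.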

How the data were processed

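Hearts of 15 mice, by the study's account, were measured on 15 Agilent mouse arrays of 45018 spots, 43379 of them not controls. Per the file headers, Feature Extraction 9.5.1.1 was what the authors used to read the intensity of each channel; it removed background, evened out the dyes by LOWESS and gave the deposited log10 ratio of heart over reference, converted here to log2. The value table holds identical ratios. Spots with an outlier flag were left out and spots of a probe averaged. A probe entered the test if its heart signal passed the well-above-background mark in 4 or more arrays of any 1 group. The 3 groups were fitted together with limma 3.58.1 in R 4.3.3, and a call is an adjusted p under 0.05. The fit was tested on simulated data. Replicates are mice by the study's account, though the data do not settle whether treated replicates 3 and 4 are separate hearts. The number of arrays limits the precision. Probes were named from the files and, for 23374 probes, from the accession.

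The genes and lists were chosen with earlier results of these data known. All probes of the 7 genes are given; of the lists, every gene called in any comparison and, in a list with fewer than 2 called, the 2 with the smallest p in untreated against db/+ hearts; and the 5 genes most like Lepr and Socs3. The adipocyte, hepatocyte and lymphocyte markers given by name were named after their values were seen. Treated replicates 3 and 4 were averaged. Alternatives were other background and dye corrections, scaling, filters, slide and replicate blocks, fits of 2 groups, single arrays left out and, added after the data were seen, outlier spots kept and the heart channel alone. The study's own test, SAM, was not run. The array is described as a human design in the methods, but the files hold the mouse design. Some lymphocyte marker results are not reported here.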

Additional observations from a re-analysis of the deposited data

Results flagged for a closer look

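Of 56 groups of 4 or 5 samples, over the tested probes of the leptin genes and the called pathway genes, 1 held a sample far from the others by Dixon's test, where chance gives about 1 in 20. Pik3r1 in db/+ replicate 3 had a log2 ratio of 2.49, against 2.05 in the next db/+ heart.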

How the results depend on the processing

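Of the 30 differences (10 probes in 3 comparisons), none was called at first and 3 of their 798 alternative values were, all of Lepr. A member probe was called with slide as a random block (1 probe, Lepr, untreated against db/+ hearts, -0.95, adjusted p = 0.0456; the estimated slide correlation was -0.11) and with the heart channel alone (1 probe, Lepr, in each of untreated and treated db/db against db/+ hearts). Values of the other sign also occurred, none of them called, and the cause was not tested. With normexp and loess they were, for untreated against db/+ hearts, 0.035 (Leprotl1 A_52_P496655) and -0.20 (Jak2 A_52_P309376); for treated against untreated hearts, -0.014 (Leprotl1 A_52_P496655); and for treated against db/+ hearts, 0.021 (Leprotl1 A_51_P482940), 0.021 (Leprotl1 A_52_P496655), 0.022 (Socs3), -0.0335 (Stat3 A_52_P569499), -0.016 (Jak2 A_52_P309376) and -0.030 (Sos1). With slide as a fixed block they were 0.016 (Leprotl1 A_51_P482940), 0.0087 (Leprotl1 A_52_P395220), -0.37 (Stat3 A_52_P569499) and -0.19 (Jak2 A_52_P309376) for untreated, and 0.13 (Leprotl1 A_51_P482940) and -1.29 (Stat3 A_52_P569499) for treated against db/+ hearts. Lepr was at 0.018 in treated against untreated hearts with slide as a random block. With the heart channel alone Leprotl1 A_51_P482940 and A_52_P395220 and Jak2 A_51_P483231 and A_52_P309376 were at -0.011, 0.067, 0.058 and -0.14 in treated against untreated hearts. Leaving out 1 array, Jak2 A_52_P309376 ranged from -0.15 to 0.24 in untreated against db/+ hearts; Lepr from -0.22 to 0.18, Leprotl1 A_52_P496655 from -0.018 to 0.023 and Stat3 A_51_P201480 from -0.080 to 0.19 in treated against untreated hearts; and Leprotl1 A_51_P482940 from -0.027 to 0.048, Socs3 from -0.094 to 0.020 and Stat3 A_52_P569499 from -0.26 to 0.51 in treated against db/+ hearts.

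The replicate numbers do not pair the samples: samples with the same number correlated at -0.19 to 0.048 over 15 pairs, and 0 of 15 was most like a sample of its own number. With the replicate number as a block and treated replicates 3 and 4 apart, 0 member probes were called, and Lepr was at 0.047 and Stat3 A_51_P201480 at -0.0073 in treated against untreated hearts and Leprotl1 A_51_P482940 at 0.0082 in treated against db/+ hearts, the same values as with these replicates apart and no block.

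Over all probes, calls for untreated against db/+ hearts (2140) came to 33 with slide as a fixed block, 927 when just these 2 groups were fitted, 5043 with slide as a random block and 1184 to 2747 without 1 array. For treated against db/+ hearts (2408) they came to 4, 5131, 1476 with normexp and loess, 3756 with replicates 3 and 4 apart, and 1093 to 2893 without 1 array. For treated against untreated hearts (0) they came to 1, 1, 1 with replicates 3 and 4 apart, 71 with the heart channel alone and 14 without untreated replicate 4. In untreated against db/+ hearts, Jak1 lost its call with normexp and loess (adjusted p = 0.0707) and when just these 2 groups were fitted (0.0741), and Prkaa1 when just these 2 groups were fitted (0.101), with scaling between arrays (0.0862) and with the heart channel alone (0.118). Leaving out 1 array, Prkaa1 lost that call in 9 of 15 fits (without db/+ replicate 2, 3 or 4, untreated replicate 1, 2 or 5, or treated replicate 1, 2 or 5; adjusted p up to 0.0908) and Jak1 in 3 (without db/+ replicate 4, untreated replicate 2 or untreated replicate 5, up to 0.0654). For treated against db/+ hearts, Jak1 (0.0578), Sos1 (0.0624) and Leprot (0.0512) lost theirs without treated replicate 5, and Leprot also without treated replicate 1. Sos1 also lost its call there with normexp and loess, where its difference was of the other sign (-0.030, adjusted p = 0.938, limma).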
